A study of Drosophila melanogaster with 25 samples.

Results

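Dopaminergic neurons (DANs) of the fly brain were compared between ZT14 and ZT02, 2 hours after lights-off and 2 hours after lights-on of a 12:12 light:dark cycle, in droplet data made with 10X Chromium. DANs were chosen by measured UMIs, as cells with at least 5 UMIs of Vmat, at least 1 UMI of DAT and no more than 2 UMIs of tim, vri, Clk and cry together. UMIs are molecular tags that count each captured mRNA once. By this rule 2148 of the 5184 droplet cells were DANs, among 6700 cells of the series used here. They were 1269 of 2888 cells (43.9%) at ZT02 and 879 of 2296 cells (38.3%) at ZT14. The unit of a level is TP10K, a gene's UMIs divided by all UMIs in the sum over the DANs of 1 library and multiplied by 10000. There was 1 droplet library at each time, so no test between the times was possible in these data. Each ratio of ZT14 to ZT02 carries an exact 95% Poisson interval that covers counting error only.

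The flies of both droplet libraries carried TH-GAL4 and Clk856-GAL4 together in 1 stable line, so that EGFP marked DANs and clock neurons of the same brains. Males and females were used in equal numbers after 3 days of entrainment at 25°C, brains were dissected with inhibitors of neuronal activity present, and cells were sorted on EGFP. TH-GAL4 does not label every DAN and leaves out many of the protocerebral anterior medial cluster, so the cells describe the labelled set. A comparison with several libraries a time came from plate data made with CEL-seq2, in which TH-GAL4 alone drove EGFP. Each time had 4 libraries, numbered 1 to 4 at ZT02 and 5 to 8 at ZT14. The same rule took 175 of 256 plate cells at ZT02 and 134 of 256 at ZT14 as DANs. The age of the flies is not given in the sources used here, and no label says that the plate libraries came from separate flies, so their p-values measure the spread between these libraries. By the paper's method a sorting plate can give 4 libraries, so the 4 of a time may share a plate and a cell preparation. In that case the time of day and the plate cannot be told apart.

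DANs make dopamine from tyrosine through tyrosine hydroxylase (ple) and dopa decarboxylase (Ddc), load it into vesicles through Vmat and take it back up through DAT. In flies they are known for roles in arousal, sleep, reward and memory, and they lack most of the core clock. Neurons that fire switch on a set of activity-regulated genes within minutes to hours, which include transcription factors such as sr, of the Egr family, and Hr38, the fly NR4A nuclear receptor.

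The DANs summed to 8988347 UMIs at ZT02 and 7915188 at ZT14, and no barcode occurred in both libraries. Cells at ZT14 were deeper, with a median of 8390 UMIs (range 1026 to 24515) against 6397 (1002 to 22768), and a median of 2398 genes against 2132. The values that chose the cells are a description only. The median DAN held 118 UMIs of Vmat at ZT02 and 158 at ZT14, 40 and 48 of DAT, and 0 of the clock genes at both times. Cells at the edge of the rule were few beside the whole. The 17 cells at ZT02 and 3 at ZT14 with exactly 5 UMIs of Vmat had a ple level of 18.5 and 89.6 TP10K. Those just outside, with 4, were 13 and 1 cells at 4.5 and 0 TP10K. The cells with 2 clock gene UMIs, just inside, were 19 and 18 at 67.7 and 78.6 TP10K of ple, and those with 3, just outside, were 14 and 7 at 63.9 and 48.5. The cells with 1 UMI of DAT, just inside, were 19 and 3 at 26.9 and 3.75 TP10K of ple, and those with none, just outside, were 20 and 10 at 13.8 and 9.1. The 3 cells inside at ZT14 thus had less ple than the 10 outside, which goes against the label for those cells. Over all DANs the ple level was 59.8 and 62.2 TP10K.

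In the droplet DANs, markers that the rule did not use fitted the label. Neuronal markers (elav, nSyb, Syt1 and brp) summed to 79.9 TP10K at ZT02 and 81.6 at ZT14. Marker lists of other cells were low at both times. Glial markers summed to 0.376 and 0.277 TP10K, with the defining gene repo at 0 and 2 UMIs, and 6 of the 8 lay at 16 UMIs or fewer in each library. Fat body and blood cell markers summed to 0.0423 and 0.0354 TP10K. Photoreceptor markers summed to 2.85 and 3.28 TP10K, nearly all of it norpA, a phospholipase C, while the rhodopsin ninaE and the channels trp and trpl had no UMI. Cholinergic, GABAergic, serotonergic and octopaminergic or tyraminergic lists stayed between 0.337 and 1.5 TP10K. In the plate DANs of ZT02, however, the GABAergic marker Gad1 was at 8.30 ± 6.63 TP10K (SD, n = 4). The cholinergic marker ChAT was at 3.81 ± 1.22 and the octopaminergic marker Tbh at 2.32 ± 2.13 there. Ddc was at 8.63 ± 1.16 in the same libraries, and repo had no UMI. The levels of Gad1, ChAT and Tbh go against the label in the plate DANs, and this limit holds for all plate sums below. Whether other kinds of neuron were among the plate DANs was not tested. Markers of clock neurons in the droplet DANs summed to 3.62 TP10K at ZT02 and 1.07 at ZT14, most of it Pdf. That list includes tim, vri, Clk and cry, which the rule held low, so its sum is a description only.

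Of 5515 genes with at least 200 UMIs over the DANs of both libraries, here called the genes read, 125 (2.27%) were at least 1.5-fold higher at ZT14 and 162 (2.94%) at least 1.5-fold lower, 5.20% in all. The median ratio was 0.962. How many of each depended on the scaling, since higher genes made up 43.6% of those past the fold, but 60.8% with the median ratio set to 1, 54.9% with TMM scaling, 57.6% in cells thinned to one depth and 34.1% with each cell weighted equally. The DANs hold many types, whose shares differed between the libraries by a factor of 0.666 to 1.66. Genes were therefore also read with each of 19 DAN clusters (1718 cells) given the same share at both times. A set of 74 higher genes (1.34%) and 75 lower ones (1.36%) stayed past the fold and went that way in at least 75% of the clusters. The 12 of them farthest from 1 on the higher side were 8 genes of the mitochondrial genome and 4 heat shock genes. The 12 on the lower side included sr, CG14186, Hr38 and CrebA beside Hug, CG4716, Pdh, ITP, Pdf, cv-2, CG12239 and meng.

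**Figure D1:**
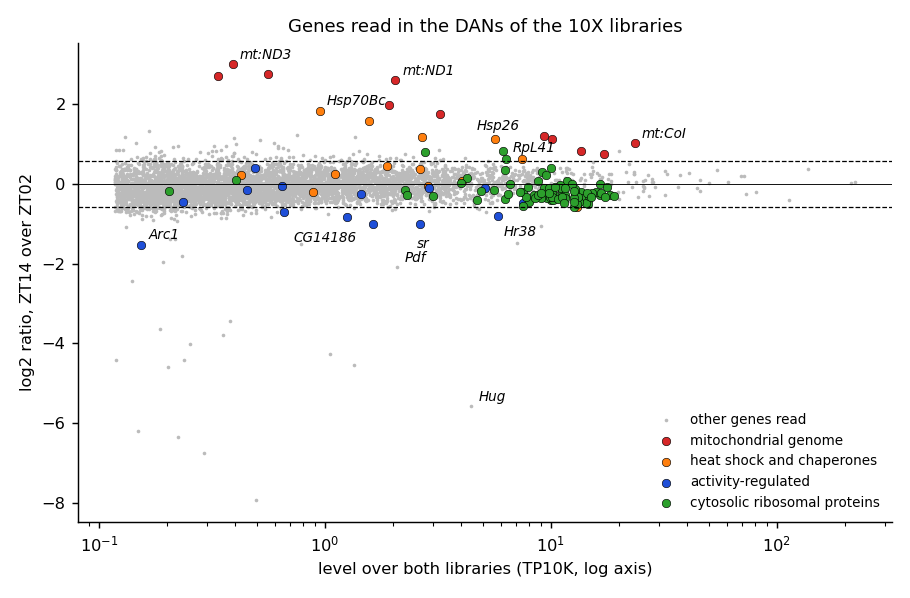
Genes read in the DANs of the 10X libraries. Each point is 1 gene, with its level over both libraries (TP10K, log axis) against the log2 ratio of ZT14 to ZT02, the dashed lines mark a ratio of 1.5 in either direction, and 1 gene with no UMI at ZT14 is not drawn. Mitochondrial-genome genes (red) all lie above the upper line, 5 heat shock genes (orange) do as well, and 6 activity-regulated genes (blue) lie below the lower line.

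Cells of the same 2 libraries that carried at least 5 UMIs of the clock genes, no more than 1 of Vmat and none of DAT are called clock-marked cells below, 397 at ZT02 and 467 at ZT14. They went through the same dissection, sort and library as the DANs. The paper reports that tim, one of the genes that chose them, cycles in clock neurons with its peak in the dark phase. The choice can therefore take different cells at each time. How this bears on the ratios in clock-marked cells was not tested. Of 4229 genes read in them, 426 (10.1%) were at least 1.5-fold higher at ZT14 and 215 (5.08%) lower. Among the 125 genes higher in DANs, 93 were read in clock-marked cells, of which 58 were past 1.5-fold higher there as well and 3 lower. Among the 162 lower in DANs, 83 were read, of which 27 were lower there too and 11 higher.

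Activity-regulated genes were lower at ZT14. The list held 16 genes, put together with earlier results of these data known, of which 14 were read and CG11221 and CG30497 had no UMI in the droplet DANs. Conversely, the list member CG46385 had no UMI in the plate DANs of ZT02, where CG30497 had a mean of 20.6 TP10K. Likewise meng, not on the list, had none there, where CG11221 was at 0.702. Whether each pair is the same gene under different symbols was not tested. None of the 14 was past 1.5-fold higher, 6 were past it lower (sr, Hr38, CG14186, CrebA, CG17778 and Arc1, of which all but Arc1 also held over clusters), and 13 had a ratio below 1. Of all 5515 genes read, 3125 had a ratio below 1. The median ratio of the list was 0.722, against 0.962 over all genes read, and between 0.715 and 0.807 under the alternative scalings, weights and choices of cells. The summed level of the list was 35.8 TP10K at ZT02 and 25.5 at ZT14, while that in clock-marked cells was 34.8 and 33.4.

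Of the transcription factors on the list, sr, Hr38 and CrebA were past the fold. The gene sr (FBgn0003499, chromosome 3R, 18090803 to 18135583 in BDGP6.54) had 3103 UMIs at ZT02 and 1353 at ZT14, or 3.45 and 1.71 TP10K, a ratio of 0.495 (0.464 to 0.528). Its ratio in clock-marked cells was 0.885 (0.812 to 0.963), so that the ratio in DANs was 0.560 times that in clock-marked cells (0.504 to 0.622). Hr38 (FBgn0014859, chromosome 2L, 20683462 to 20714588) was at 7.30 and 4.20 TP10K, a ratio of 0.576 (0.552 to 0.60). It was lower by a like amount in clock-marked cells, at 0.569 (0.535 to 0.606). CrebA (FBgn0004396, chromosome 3L, 15535395 to 15553214), a bZIP factor known for switching on secretory pathway genes, was at 1.57 and 0.886 TP10K, a ratio of 0.565 (0.515 to 0.619), with 0.624 in clock-marked cells.

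Members that are not transcription factors, or whose role is not given here, were also among those past the fold. CG14186 (FBgn0036935, chromosome 3L, 20098084 to 20103827) was at 2.13 TP10K at ZT02 and 1.07 at ZT14, a ratio of 0.501 (0.461 to 0.543), against 1.02 (0.909 to 1.15) in clock-marked cells. CG17778 had a ratio of 0.613 (0.541 to 0.695) in DANs and 0.291 in clock-marked cells. The capsid gene Arc1 was sparse, with 199 and 61 UMIs, and had the lowest ratio of the list, 0.348. In cells matched to DAN clusters Arc1 was at 0.674 and CG17778 at 0.762, so neither was past the fold there, and Arc1 was lower in 11 clusters and higher in 8. The remaining members were within 1.5-fold. CG46385 was at 0.717, Jra, the fly Jun, at 0.727, the zinc finger factor cbt at 0.848 and kay, the fly Fos, at 0.902. The MAP kinase phosphatase gene Mkp3 was at 0.927, CG13868 at 0.935 and CG8910 at 0.972. The phosphatase gene puc, a target of JNK signalling, stood on the other side at 1.32 (1.15 to 1.51).

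Depth differed between the libraries, so shares of cells were also read after thinning each cell to 4000 UMIs, which left out 450 of 1269 DANs at ZT02 and 204 of 879 at ZT14. The share of DANs with an sr UMI was 52.9% at ZT02 and 28.4% at ZT14 (51.9% and 35.8% without thinning). The share with an Hr38 UMI was 83.6% and 53.5% (82.2% and 56.7%), and that with a CG14186 UMI 45.5% and 26.1% (50.4% and 40.5%). All 3 transcripts occurred together in 24.9% of thinned DANs at ZT02 (exact binomial interval 22% to 28%) and in 9.04% at ZT14 (6.98% to 11.5%). None of the 3 occurred in 6.84% and 32.1%.

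The difference was also read by DAN cluster. In sums over 19 clusters, sr was lower at ZT14 in 18, Hr38 in 19 and CG14186 in 17, and the counting interval lay below 1 in 13, 18 and 11 of them. Intervals above 1 were seen in none. Cluster 24 (26 and 14 cells), whose leading genes include bnl, klu, Trh and Dll, had the highest sr level at ZT02, 16.2 TP10K, and stood at 4.47 at ZT14, a ratio of 0.275 (0.210 to 0.356). Its CG14186 level was 7.37 and 1.76 TP10K. Clusters 13 and 23, which share hbn, Dll and Optix among their leading genes, came next for sr at ZT02, with 8.60 and 5.67 TP10K, and were at 6.27 and 4.57 at ZT14. CrebA was lower in 17 of 19 clusters, with the interval below 1 in 8 and above 1 in 1.

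**Figure D2:**
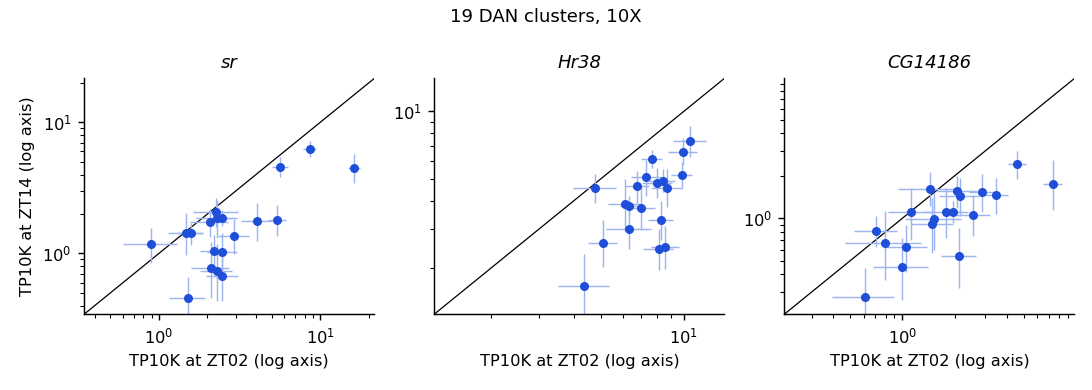
Levels of sr, Hr38 and CG14186 in the 19 DAN clusters. Each point is 1 cluster, with its level at ZT02 (x axis) and ZT14 (y axis) in TP10K on log axes, bars are 95% counting intervals, and the line marks equal levels; all but 1 cluster for sr, all 19 for Hr38 and all but 2 for CG14186 lie below it.

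The plate libraries gave the same direction for these genes, with 4 libraries a time. The CEL-seq2 levels of sr were 4.31, 2.64, 3.60 and 3.68 TP10K in the libraries of ZT02 and 1.03, 0.512, 0.853 and 1.63 in those of ZT14. The groups did not overlap, and the mean fell from 3.56 ± 0.692 to 1.01 ± 0.469 TP10K (SD, n = 4). In edgeR's quasi-likelihood test over 3788 genes, sr fell by 1.86 ± 0.28 (SE) on the log2 scale with an adjusted p of 0.0224. That call was lost without library 1, 3, 5, 6 or 7, with adjusted p from 3.05e-16 to 0.137 over all alternatives. It was 1 of only 2 genes called, 1 lower (0.0264%) and 1 higher (0.0264%).

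Hr38 was at 0.797, 0.320, 0.259 and 0.509 TP10K in the plate libraries of ZT02 and at 0.233, 0.0768, 0.104 and 0.0333 in those of ZT14. Its groups did not overlap, but its log2 fold change of -2.07 ± 0.53 had an edgeR adjusted p of 0.239. The plate levels of Hr38 lie far below the droplet ones and rest on few UMIs. These were 36, 17, 18 and 22 in the libraries of ZT02 and 7, 3, 5 and 1 in those of ZT14. CG14186 was at 2.6, 2.0, 2.4 and 2.9 TP10K against 1.6, 1.7, 1.1 and 1.5, with no overlap, a log2 fold change of -0.79 ± 0.18 and an adjusted p of 0.239. CrebA was at 2.43, 0.980, 1.38 and 1.16 TP10K against 0.30, 0.538, 0.312 and 0.50, again with no overlap, at -1.87 ± 0.33 and 0.0782. Every ZT14 library thus lay below every ZT02 library for each of these genes, while only sr passed the edgeR test over all genes, and DESeq2 called sr, CrebA and CG30497 of the list.

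Over the whole list, 13 genes were tested in the plate data and 13 had a log2 fold change below 0, with a median of -0.88 against -0.01 over all genes tested. Of all 3788 tested, 1942 were below 0. In 8 of the 13 the libraries did not overlap, where 2.09% of all genes tested were lower without overlap and 2.46% higher. An unadjusted p under 0.05 in the lower direction was reached by 9 of 13, against 4.22% of all genes tested, and 3.38% in the higher one. Since the list was put together with earlier results of these data known, these shares are a description and not independent support. Both genes without UMIs in the droplet data were among the 13, CG30497 at -1.28 and CG11221 at -1.36. The list summed to 40.7, 26.4, 32.7 and 45.1 TP10K in the libraries of ZT02 and to 14.6, 14.2, 18.4 and 20.4 in those of ZT14. Much of that sum is 1 gene, since at ZT02 CG30497 had a mean of 20.6 TP10K of the 36.2 of the list. The droplet sum of the list holds no UMI of CG30497.

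**Figure D3:**
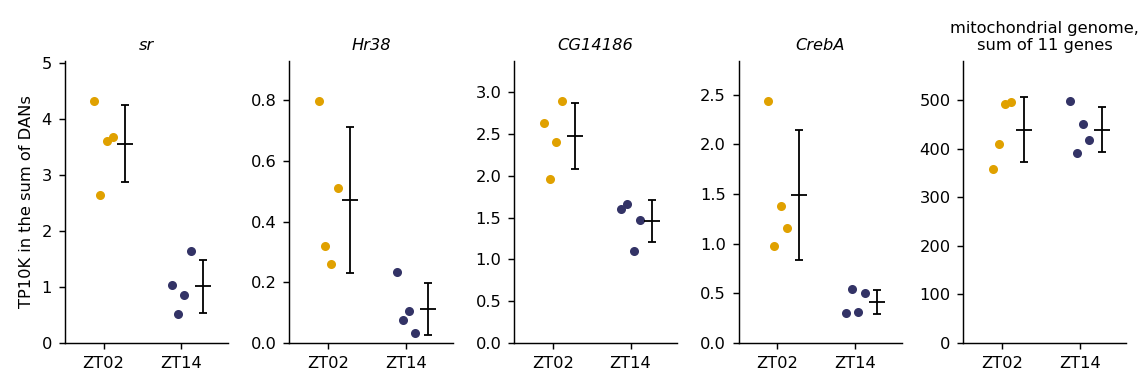
Levels in the DANs of the CEL-seq2 libraries at ZT02 (libraries 1 to 4) and ZT14 (libraries 5 to 8). Each point is the sum over the DANs of 1 library in TP10K, and the bars are mean ± SD; the groups do not overlap for sr, Hr38, CG14186 and CrebA, and overlap for the sum of the 11 mitochondrial-genome genes.

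Transcripts of the mitochondrial genome were higher at ZT14 in the droplet DANs. This genome encodes subunits of respiratory complexes I, III, IV and V. All 11 of its genes that were read were past 1.5-fold higher, with a median ratio of 3.38, and the 11 summed to 54.3 TP10K at ZT02 and 114 at ZT14. Complex I genes stood highest. The gene mt:ND3 had 82 and 579 UMIs, a ratio of 8.02 (6.35 to 10.2), and mt:ND1 had 546 and 2920, a ratio of 6.07 (5.54 to 6.67). The ratios of mt:ND6, mt:ND2, mt:ND5 and mt:ND4 were 6.8, 6.5, 4.0 and 3.4. Cytochrome b (mt:Cyt-b) was at 2.33, mt:ATPase6 at 2.19 and the cytochrome oxidase genes mt:CoI, mt:CoIII and mt:CoII at 2.03, 1.78 and 1.68. All 19 clusters were higher at ZT14 for 9 of these genes, 18 for mt:CoII and 16 for mt:CoIII. After thinning, 22.5% of DANs at ZT02 and 64.9% at ZT14 had an mt:ND1 UMI.

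The same genes were higher in the clock-marked cells of these libraries, at a median ratio of 4.74, so the difference was seen in both kinds of cell. In the plate DANs it was not seen. The 11 genes, of which mt:CoIII had no UMI there, summed to 359, 409, 492 and 496 TP10K in the libraries of ZT02 and to 498, 391, 451 and 418 in those of ZT14, with means of 439 ± 66.8 and 439 ± 46.3 (SD, n = 4). Of 14 mitochondrial-genome genes tested, edgeR called none (1 had an unadjusted p under 0.05, and neither DESeq2 nor any other alternative called one), with a median log2 fold change of 0.05. That of mt:ND1 was -0.11 ± 0.23. With 1 droplet library a time, the time of day and the library cannot be told apart.

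Inducible heat shock genes went with the mitochondrial ones. Of 13 heat shock and chaperone genes read, 5 were past 1.5-fold higher and none past it lower. Hsp70Bc, of the inducible Hsp70 family, was at 0.428 and 1.54 TP10K, a ratio of 3.59 (3.20 to 4.03), a value that is uncertain because reads of near-identical Hsp70 copies can be split between them. Hsp68, another member of the Hsp70 family, had a ratio of 3.01 (2.76 to 3.29). The small heat shock genes Hsp27, Hsp26 and Hsp23 were at 2.27, 2.19 and 1.55. Hsp83, the fly Hsp90, went the other way at 0.669 and was lower in all 19 clusters. In clock-marked cells Hsp70Bc was at 3.67, Hsp68 at 2.58, Hsp26 at 1.86 and Hsp27 at 1.36, while Hsp23 was at 0.760 and Hsp83 at 0.943.

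A rise was not seen in the plate DANs, but the inducible genes were sparse there. The heat shock list summed to 24.8 ± 1.92 TP10K at ZT02 and 22.9 ± 3.09 at ZT14 (SD, n = 4). That sum says little about the inducible genes. At ZT02 the mean of Hsp83 alone was 5.79 TP10K, and those of Hsp70Bc, Hsp68, Hsp27 and Hsp26 were 0.382, 0.127, 0.369 and 0.482. A log2 fold change below 0 was seen in 12 of the 15 list genes tested, against 1942 of all 3788 tested. Hsp70Bc was at -0.56 ± 0.55, Hsp27 at -0.62 ± 0.35 and Hsp26 at -0.08 ± 0.36. These 3 genes rest on 3 to 39 UMIs a library. Among stress genes of the droplet DANs, Irbp18 (2.29), a C/EBP-like factor, Gadd45 (1.62), a growth arrest gene, and the catalase gene Cat (1.55) were past 1.5-fold higher. Gadd45 was at 0.946 in clock-marked cells, the others at 2.83 and 1.79.

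**Figure D4:**
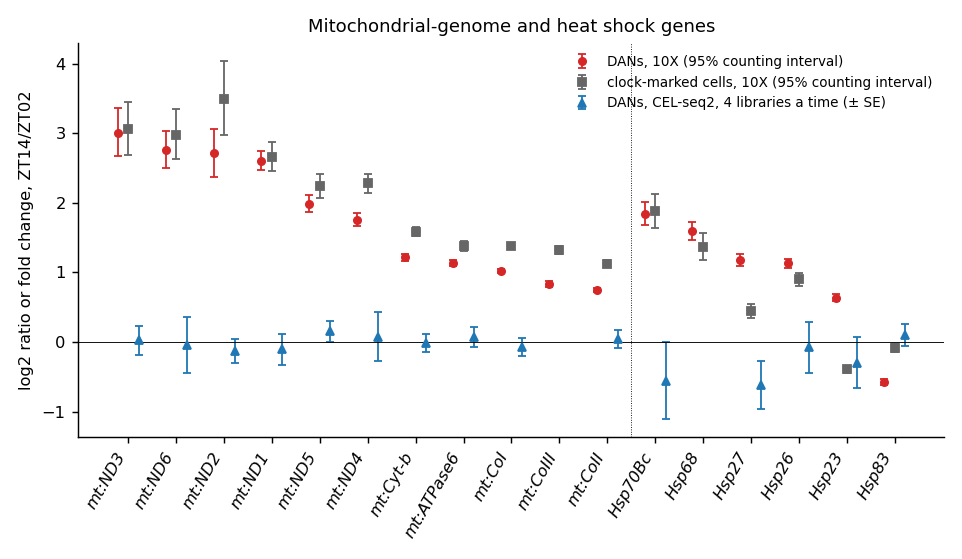
Differences between ZT14 and ZT02 for genes of the mitochondrial genome and heat shock genes. Red and grey points are log2 ratios of droplet DANs and clock-marked cells with 95% counting intervals, and blue triangles are edgeR log2 fold changes of plate DANs ± SE over 4 libraries a time; red and grey mitochondrial points lie between 0.75 and 3.49, and the blue ones close to 0. No blue point is drawn for mt:CoIII and Hsp68, which were not tested in the plate data.

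Among genes of the dopamine pathway other than Vmat and DAT, which the rule used, none of the 7 read was past 1.5-fold. The ratio of ple was 1.04 (1.03 to 1.05), that of Ddc 1.03 and that of Pu, which makes the first enzyme of the tetrahydrobiopterin cofactor pathway, 1.0. Other genes of pterin synthesis and recycling were lower, with pr at 0.875, Sptr at 0.776 and Dhpr at 0.761, and Catsup, a negative regulator of tyrosine hydroxylase, was at 0.725. Vmat (1.03) and DAT (0.866) helped choose the cells and are given as description. Phenylalanine hydroxylase (Hn) had 7 UMIs at ZT02 and 0 at ZT14. In the plate DANs, again without Vmat and DAT, 5 of 5 genes tested had a log2 fold change above 0. Neither edgeR nor DESeq2 called any, and an unadjusted edgeR p under 0.05 was reached by 2 (Ddc and Pu), against 3.38% of all genes tested in the higher direction. For ple the plate levels were 23.3, 21.0, 17.4 and 24.0 TP10K at ZT02 and 22.2, 35.3, 17.7 and 35.9 at ZT14, with overlap and a log2 fold change of 0.35 ± 0.20. That of Ddc was 0.51 ± 0.17, with an adjusted p of 0.493.

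Among receptors for dopamine, Dop2R, the D2-like receptor through which DANs sense their own transmitter, had the highest count. It was at 122 TP10K at ZT02 and 157 at ZT14, a ratio of 1.29 (1.28 to 1.3), and was higher in 17 of 19 clusters. The plate DANs gave a log2 fold change of 0.10 ± 0.19 for Dop2R. The D1-like receptors Dop1R1 and Dop1R2 were at 1.0 and 1.06, and DopEcR, which also binds ecdysone, at 0.908. Over 36 other receptors for peptides and amines, 3 were past 1.5-fold higher and 1 lower. Those higher were hec (1.95, 1.65 to 2.31), a calcitonin-receptor-like gene, GABA-B-R3 (1.61) and Dh44-R2 (1.51), of which only hec held over clusters. For hec, clock-marked cells were at 0.993, and the ratio of the ratios was 1.97 (1.49 to 2.60).

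None of 14 clock genes read was past 1.5-fold, and tim, vri, Clk and cry, which chose the cells, had 10 to 97 UMIs each. The largest differences were in per and Pdp1. The period gene per was at 13.3 TP10K at ZT02 and 9.33 at ZT14, a ratio of 0.699 (0.679 to 0.720), and was lower in all 19 clusters. In clock-marked cells it was at 1.15 (1.09 to 1.21). Pdp1, a bZIP factor of the second clock loop, was at 10.1 and 13.4 TP10K, a ratio of 1.33 (1.29 to 1.37), higher in all 19 clusters, against 4.20 in clock-marked cells. The repressor cwo was at 0.983 and tws, a phosphatase subunit that acts on PER, at 1.3. In the plate DANs per was at 0.208 ± 0.0721 TP10K at ZT02 and 0.196 ± 0.0874 at ZT14 (SD, n = 4). These levels lie far below the droplet ones. They rest on 10, 6, 20 and 9 UMIs in the libraries of ZT02 and on 3, 6, 11 and 9 in those of ZT14. With so few UMIs per was not tested with edgeR. Pdp1 had a plate log2 fold change of 0.18 ± 0.12.

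Among the lower genes that held over clusters, the lowest ratios, those of Hug, CG4716 and Pdh, rested in large part on few cells. Some genes that did not hold were lower still, such as CG7214 with 305 UMIs at ZT02 and 0 at ZT14. The neuropeptide gene Hug had 7384 UMIs at ZT02 and 136 at ZT14, but a single cell held 91.6% of the former, and its ratio of 0.0209 was 0.337 without the 5 cells of each library that had most Hug. Likewise CG4716 stood at 0.0432 (0.133 without those cells), and the photoreceptor dehydrogenase gene Pdh at 0.0522 (0.0890 without them). The ratio of ITP, the ion transport peptide, was 0.0916 (0.0668 to 0.123), that of cv-2, which encodes a BMP-binding protein, 0.256, and that of meng, a kinase gene, 0.387. These 3 did not rest on the top cells, without which they were at 0.0898, 0.217 and 0.372, but in cells matched to DAN clusters they were at 0.325, 0.459 and 0.616. The plate DANs of ZT02 had no UMI of meng, and whether it is counted there as the activity-regulated CG11221 was not tested. The values of Hug, CG4716 and Pdh in matched cells were 0.567, 0.215 and 0.154. The level of each of these genes was higher in clock-marked cells than in DANs, in both libraries. Pdf, the peptide of the lateral clock neurons, was at 427 and 179 TP10K there and at 3.25 and 0.762 in DANs, a ratio of 0.234 (0.379 without the top cells and 0.519 in matched cells). A Pdf UMI occurred in 47.4% of DANs at ZT02 and 43.7% at ZT14, which was not read as expression, since DANs are not known to make this peptide. What free RNA adds to these sums was not tested.

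CG12239 stood apart from those genes. In DANs its level was 10.1 TP10K at ZT02 and 3.61 at ZT14, a ratio of 0.357 (0.342 to 0.372), and it was mostly a gene of cluster 13 (52 and 24 cells). That cluster held 140 and 79.6 TP10K, a ratio of 0.569 (0.544 to 0.595), and its share of the DANs was lower at ZT14 as well (ratio of shares 0.666). The ratio of CG12239 over all DANs was 0.199 without the 5 top cells of each library and 0.713, within the fold, in cells matched to DAN clusters. In 16 read genes of neuropeptides and hormones, 5 were past 1.5-fold lower (NPF, AstA, Pdf, ITP and Hug) and 1 higher. The latter was sNPF at 1.94 (1.71 to 2.20), which reversed to 0.817 in cells matched to DAN clusters. In the plate DANs sNPF was at 3.85, 1.26, 1.22 and 0.625 TP10K at ZT02 and at 0.266, 0.487, 0.208 and 0.467 at ZT14, with no overlap. Its log2 fold change of -2.31 ± 0.51 had an edgeR adjusted p of 0.196, and DESeq2 called it. The detoxification gene GstD1 reversed likewise, from 0.185 to 1.36.

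Housekeeping groups moved by small amounts across many members. Among all 5515 genes read, 3125 had a ratio below 1. Of 85 cytosolic ribosomal protein genes, 71 had a ratio below 1, with a median of 0.839, and none was past 1.5-fold lower. The 3 past it higher were RpL41 (1.79), RpL39 (1.75) and RpL29 (1.54), which have the 3 shortest transcripts of the list, 320, 288 and 389 nucleotides. Proteasome genes were below 1 in 30 of 31, with a median of 0.808 and none past the fold. Genes of the nuclear respiratory chain had a median of 0.855 over 67, with ox (1.79) and UQCR-6.4 (1.62) past 1.5-fold higher and UQCR-C2 (0.650) and ATPsyngamma (0.660) past it lower, so they did not go with the mitochondrial genome. In the plate DANs the medians of these lists were above 0. Higher were 60 of 79 ribosomal, 21 of 29 proteasome and 59 of 66 respiratory chain genes, against 1846 of all 3788 tested. No gene of these lists was called by edgeR or DESeq2. An unadjusted edgeR p under 0.05 in the higher direction was reached by 0, 1 and 8 of them, against 3.38% of all genes tested, and in the lower direction by 1 ribosomal gene.

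Ratios of voltage-gated and leak channel genes were above 1 in 24 of 27, with a median of 1.16 and none past the fold, where 2390 of all 5515 genes read were above 1. These counts were not tested. The sodium leak channel gene na was at 1.49, the calcium channel gene Ca-alpha1D at 1.45 and the potassium leak channel gene Task7 at 0.775. Receptors of fast transmitters were above 1 in 15 of 18, with KaiR1D, a glutamate receptor subunit, at 1.52 (1.30 in matched cells, within the fold) and nAChRalpha6 at 1.32 and higher in all 19 clusters. Of 29 genes of synaptic vesicles and active zones, none was past 1.5-fold. Among cAMP and calcium signalling genes the adenylyl cyclase gene Ac76E was at 1.60 (1.37 in matched cells) and sra, a regulator of calcineurin, at 0.734. Of the cell surface genes of the dpr and DIP families, DIP-kappa (1.52), dpr20 (0.596) and DIP-lambda (0.383) were past the fold, but none held with equal clusters and in 75% of clusters, and dpr20 was at 0.726 in matched cells. In the plate data channels and fast receptors had medians of -0.06 and -0.09.

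Transcript length went with the droplet ratios. The median ratio was 1.26 over 75 genes whose longest annotated transcript has up to 500 nucleotides, 0.866 over 654 genes of 500 to 1000, and 0.843 over 1543 of 1000 to 2000. It was 0.986 over 1753 genes of 2000 to 4000, 1.11 over 1176 of 4000 to 8000 and 1.16 over 282 longer ones. The bin of 1000 to 2000 nucleotides held 105 of the 162 genes past 1.5-fold lower. Across 5483 genes, which share the libraries and are not independent, Spearman's rho was 0.510 in DANs. It was 0.178 across 4034 genes in clock-marked cells and -0.196 across 3293 genes in the plate DANs. The part of length in the medians of the gene lists was not tested.

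**Figure D5:**
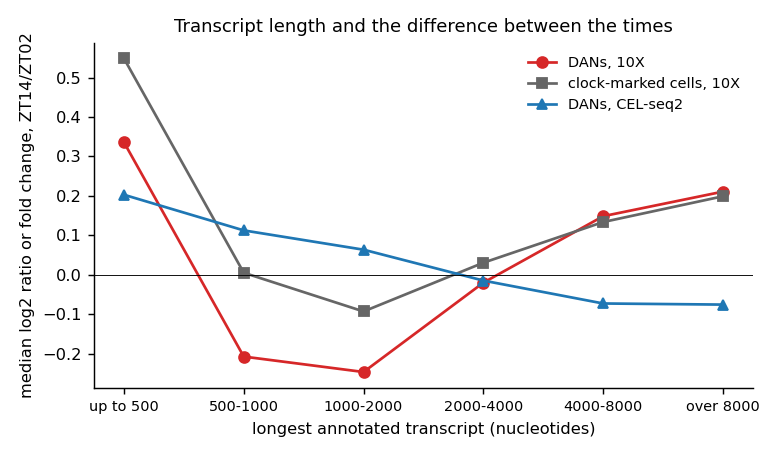
Median difference between ZT14 and ZT02 by the length of the longest annotated transcript. Points are medians over the genes of a bin, on the log2 scale, in droplet DANs (red), droplet clock-marked cells (grey) and plate DANs (blue); the red line is lowest at 1000 to 2000 nucleotides and rises to the longest bin, while the blue line falls from 0.20 to -0.08.

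Droplet and plate DANs were little alike over all genes. Spearman's rho between the droplet log2 ratio and the plate log2 fold change was -0.10 across 3206 genes. Of the 74 higher genes that held over clusters, 48 were tested in the plate data, of which 27 were higher and 21 lower, with a median log2 fold change of 0.04. Of the 75 lower ones 13 were tested, of which 9 were lower and 4 higher, with a median of -0.23. The line, the method and the collections differ between the datasets, and their parts cannot be told apart.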

How the data were processed

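Whole-number UMI counts, not normalized, are what the authors deposited for each cell. They demultiplexed with bcl2fastq 2.20, aligned reads to dm6 and kept exonic alignments, with Cell Ranger 6.0.2 for 10X Chromium and zUMIs for CEL-seq2. Cells outside limits on genes, UMIs and entropy, and doublets called by Scrublet, were removed before deposit. Of the values, 2325 columns of clock neurons from an earlier study were not used, and spike-in rows were left out.

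UMIs were summed over DANs of a library. Ratios carry exact conditional Poisson (Clopper-Pearson) intervals at 95%. Cells were matched to the 43 clusters of the study (24 of DANs) by correlation over 273 genes of its table of cluster means, at r of 0.5 or more and a lead of 0.01, and 1814 of 2148 DANs matched a DAN cluster and 1 a clock cluster. Plate sums (27 to 50 DANs and 300076 to 694259 UMIs a library) were tested with edgeR 4.0.16 in R 4.3.3 (TMM, filterByExpr, glmQLFTest, Benjamini-Hochberg over all genes), called at adjusted p under 0.05 and a fold of 1.25. Other steps used Python 3.11.15 and scipy 1.17.1, and methods were tested on simulated data. Coordinates and lengths are from BDGP6.54, where 16158 of 17087 gene rows were found. Depth limits genes under 200 UMIs, where counting error is widest.

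Alternatives covered scaling, weights, choice of cells, thinning, folds and UMI minimums, DESeq2 1.42.0, filters and each plate library left out. Leaving out the 5 cells of each library with most UMIs of a gene was chosen after seeing the data. Members and gene lists were chosen with earlier results of these data known. Genes were named from the 12 on each side, among genes past the fold also with equal clusters and in 75% of clusters, whose interval bound was farthest from 1, all members of the dopamine, receptor, clock, activity and marker lists, and the 2 highest and 2 lowest of other lists. Members of these lists that are not named are covered by the counts and medians. Further genes past the fold in a list, other members of the mitochondrial and heat shock lists, and genes that lead clusters were named after their values were seen.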

Additional observations from a re-analysis of the deposited data

Results flagged for a closer look

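In the plate DANs, 36 groups of 4 libraries were looked at for a single library far from the others, of which chance gives about 1 in 20. AstA stood at 0.233 TP10K in library 5 of ZT14 and between 0 and 0.0333 in the other 3. CG12239 stood at 68.5 TP10K in library 3 of ZT02 and between 1.57 and 4.62 in the other 3, so its log2 fold change of -3.20 ± 0.93 (edgeR adjusted p of 0.394) rests on 1 library.

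For 4 genes the droplet DANs and the clock-marked cells of the same libraries went past 1.5-fold in opposite directions, a difference that was not tested because each time has 1 library. CG4716 had a ratio of ZT14 to ZT02 of 0.0432 in DANs and 2.0 in clock-marked cells, and CG12239 one of 0.357 and 5.93, although CG12239 was at 0.713, within the fold, in cells matched to DAN clusters. The ratio of sNPF was 1.94 in DANs and 0.208 in clock-marked cells. SIFaR, the receptor of the peptide SIFamide, was at 0.666 in DANs and 2.99 in clock-marked cells.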

How the results depend on the processing

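Counts of genes past the fold in the droplet DANs, 125 higher and 162 lower, moved with the minimums. They were 22 and 27 at a fold of 2, 231 and 306 with 50 UMIs or more, 61 and 27 with 1000 or more, and 713 and 915 with 1 UMI or more in each library. Lower genes moved by over 1.5 times, to 107 with the median ratio set to 1, 259 with each cell weighted equally and 103 in thinned cells, of which 107, 129 and 44 were among the 162. Higher genes moved less there, to 166, 134 and 140. Ratios of single genes stayed within their counting interval in 1149 cases, moved beyond it in 249, and reversed in 2, both in cells matched to DAN clusters (0.817 for sNPF and 1.36 for GstD1). Medians of lists moved by a log2 difference under 0.1 in 225 cases and by more in 15. Among them, the neuropeptide median went from 0.813 to 1.12 in matched cells.

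In the plate data edgeR called 2 genes. DESeq2 called 10, no filter on low counts gave 132, and all TH-GAL4 cells of the libraries gave 1. Leaving out 1 library gave 0 to 9 calls, with 0 without libraries 1, 3, 5 or 6 and 9 without library 4. Log2 fold changes of single genes stayed on their side of the threshold in 1404 cases, passed it in 18 and lost it in 5. No paired analysis was possible because the plate libraries of ZT02 and ZT14 share no replicate number and each droplet group has 1 library. Counting error limits droplet values, and 27 to 50 cells a library limit plate values.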

Other observations

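CG8861 (FBgn0037676, chromosome 3R, 9293642 to 9328511) was the other gene called in the plate DANs. Its levels were 1.33, 1.77, 1.38 and 1.18 TP10K in the libraries of ZT02 and 3.30, 3.20, 2.93 and 2.97 in those of ZT14. The groups did not overlap, and the mean rose from 1.42 ± 0.252 to 3.1 ± 0.178 TP10K (SD, n = 4), a log2 fold change of 1.11 ± 0.16 with an edgeR adjusted p of 0.0224. That call was lost without library 1, 3, 5 or 6 and with all TH-GAL4 cells of the libraries. In the droplet DANs it was at 2.38 and 1.52 TP10K, a ratio of 0.638 (0.594 to 0.685), lower in 10 clusters and higher in 8.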
